A study of Mus musculus with 12 samples.

Results

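The genes described here encode 10 CXC chemokines, small signalling proteins that steer leukocytes through G protein-coupled receptors. They were picked by name from a table of 47719 genes, in 3 classes. The neutrophil-attracting class held 3 genes (Cxcl1, Cxcl2 and Cxcl5), the interferon-induced class 3 (Cxcl9, Cxcl10 and Cxcl11), and the homeostatic and other class 4 (Cxcl12, Cxcl13, Cxcl14 and Cxcl16). RNA of kidney cortex was sequenced in 12 libraries from male C57BL6/J mice, 3 libraries in each of 4 groups, with an age of 8 weeks on the labels. EtOH4hLPS mice ate the Lieber-DeCarli liquid diet with ethanol for 6 weeks, raised stepwise to 6%, and received LPS (lipopolysaccharide, the bacterial outer membrane component that TLR4 senses) at 10 mg/kg into the peritoneum 4 hours before tissue was taken. EtOH mice ate the same ethanol diet and received saline. PF4hLPS mice were pair-fed an isocaloric diet, in which maltose-dextrin stood for the ethanol, and received the same LPS dose, and PF mice were pair-fed and received saline. The labels number the replicates without stating that each is a separate mouse, so the p-values speak only of how much these libraries vary. In RNA of whole tissue, a change in the number of cells of a type and a change in RNA per cell cannot be told apart.

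CXC chemokines are grouped by the cells they attract and by what switches them on. Cxcl1, Cxcl2 and Cxcl5 bind Cxcr2 on neutrophils and are classic targets of NF-kB downstream of TLR4, TNF and IL-1, and mice, which lack a Cxcl8 gene, use them in its place. Cxcl9, Cxcl10 and Cxcl11 bind Cxcr3 on activated T cells and NK cells and are induced by interferons, Cxcl10 also through NF-kB. Cxcl12 (receptors Cxcr4 and Ackr3) and Cxcl13 (receptor Cxcr5, on B cells) position cells in resting tissue, Cxcl14 is made constitutively by epithelia, and Cxcl16 is a membrane-bound ligand of Cxcr6 that Adam10 and Adam17 can shed.

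The deposited values are FPKM, fragments per kilobase of transcript scaled to library size. Summed FPKM lay between 1278219 and 1935824 in the LPS libraries and between 1005219 and 1352739 in the saline libraries. Fragment totals are not in the table, and a relative depth read from the steps between low values was 0.491 to 0.762 in LPS libraries and 0.72 to 1.199 in saline libraries, with PF library 1 set to 1. These ranges overlapped, with EtOH library 2 the saline library at 0.72. Each LPS library had 12440 to 12815 genes at or above 1 FPKM, and each saline library 12354 to 13092. For each library, the deviation of expression from its own group mean was set against transcript GC content. The slope was lowest in PF4hLPS library 2 (-0.446 log2 units per 10% GC), EtOH4hLPS library 1 (-0.329) and PF library 1 (-0.274). It was -0.072 to 0.235 in the other libraries. These slopes compare libraries within a group and cannot show a GC difference between groups. Proximal tubule markers summed to 1607 to 1917 FPKM in EtOH4hLPS, 1681 to 1712 in EtOH, 1080 to 1579 in PF4hLPS and 1506 to 1981 in PF libraries, and podocyte markers summed to 60.7 to 77.1 FPKM in EtOH4hLPS, 78.1 to 85.0 in EtOH, 48.5 to 57.3 in PF4hLPS and 70.4 to 77.5 in PF libraries, so markers of the labelled cortex were present. With LPS, 0 of 5 proximal tubule and 0 of 4 distal nephron markers passed the threshold used below in either diet, and 1 of 3 podocyte markers did, Podxl, lower in pair-fed mice.

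Most of the genes lie on chromosome 5. Cxcl5 (90759360 to 90761624), Cxcl1 (90891241 to 90893115) and Cxcl2 (90903871 to 90905938) lie close together on the plus strand, and Cxcl9 (92321347 to 92328079), Cxcl10 (92346638 to 92348889) and Cxcl11 (92359544 to 92365485) follow on the minus strand (GENCODE M21 on GRCm38, the assembly called mm10). Cxcl13 lies further along chromosome 5, Cxcl12 on chromosome 6, Cxcl14 on chromosome 13 and Cxcl16 on chromosome 11. Promoter windows from RefSeq (GRCm38.p6), 250 bases before to 50 bases after the start site, were matched for 7 genes: Cxcl1, Cxcl2, Cxcl9, Cxcl10, Cxcl12, Cxcl13 and Cxcl14. The 200 bases from 230 to 31 bases upstream are shown for the 4 genes of the induced classes among them, 5′ to 3′ on each gene's own strand, with capitals marking matches to the kappaB motif, the NF-kB recognition sequence, or to the core of the interferon-stimulated response element (ISRE), GAAANNGAAA.
Cxcl1, chr5:90891015-90891214, plus strand: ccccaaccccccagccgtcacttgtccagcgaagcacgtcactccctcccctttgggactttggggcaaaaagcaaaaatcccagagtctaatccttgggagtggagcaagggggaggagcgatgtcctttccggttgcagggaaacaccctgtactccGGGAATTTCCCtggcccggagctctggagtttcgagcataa
Cxcl2, chr5:90903669-90903868, plus strand: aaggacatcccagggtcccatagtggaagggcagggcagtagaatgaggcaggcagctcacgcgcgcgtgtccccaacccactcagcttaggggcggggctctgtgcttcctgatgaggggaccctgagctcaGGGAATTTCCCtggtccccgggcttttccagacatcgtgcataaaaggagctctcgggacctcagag
Cxcl9, chr5:92328110-92328309, minus strand: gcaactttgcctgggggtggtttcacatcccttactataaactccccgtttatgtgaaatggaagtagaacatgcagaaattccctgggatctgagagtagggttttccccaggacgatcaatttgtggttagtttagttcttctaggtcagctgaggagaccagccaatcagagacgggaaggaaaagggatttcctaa
Cxcl10, chr5:92348920-92349119, minus strand: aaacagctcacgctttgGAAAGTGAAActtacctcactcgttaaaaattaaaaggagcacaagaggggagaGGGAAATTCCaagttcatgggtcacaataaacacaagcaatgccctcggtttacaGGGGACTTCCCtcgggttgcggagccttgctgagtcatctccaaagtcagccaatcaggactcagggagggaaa

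Cxcl1 and Cxcl2 carry the same kappaB run, GGGAATTTCCC, which begins 71 bases upstream of the start site in Cxcl1 and 97 bases upstream in Cxcl2. The run holds 2 overlapping matches, 1 on each strand. In the Cxcl10 window, the ISRE core match GAAAGTGAAA begins at 213 bases upstream, and kappaB matches begin at 159, 104 and 103 bases upstream, the last pair overlapping within GGGGACTTCCC. The Cxcl9, Cxcl12 and Cxcl13 windows held no match to kappaB, the ISRE core or the interferon-gamma-activated site (GAS, TTCNNNGAA), and the Cxcl14 window held an ISRE core match at 172 and a GAS match at 191 bases upstream. Over all 32851 promoter windows of the same length, searched on both strands, 8.46% held a kappaB match, 3.44% an ISRE core match and 8.3% a GAS match. Matches are a description of these letters and show neither binding nor use of a site.

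**Figure D1:**
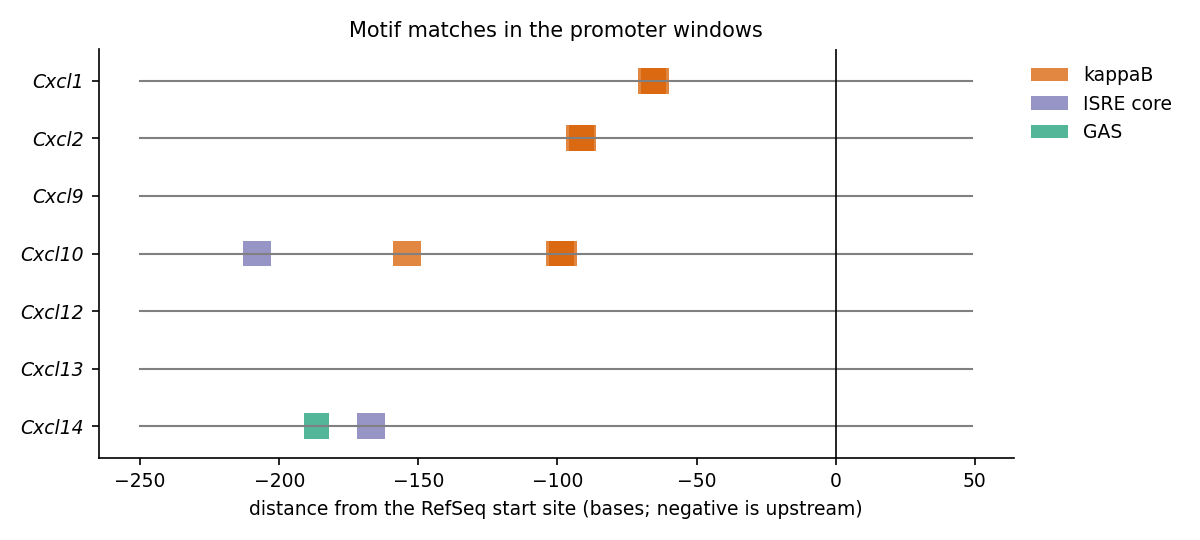
Positions of kappaB, ISRE core and GAS matches in the 7 promoter windows, as bases from the RefSeq start site (negative values are upstream; the vertical line marks the start). Cxcl1 and Cxcl2 have 1 block of overlapping kappaB matches each at 71 and 97 bases upstream, Cxcl10 has kappaB and ISRE core matches, and Cxcl9, Cxcl12 and Cxcl13 have none.

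Levels of the 10 genes differed widely under LPS, and their order differed between LPS and saline libraries. In EtOH4hLPS libraries Cxcl10 stood first at 1802 ± 214 FPKM, followed by Cxcl1 at 384 ± 26.5 FPKM (SD, n = 3), and neither range met that of the next gene. Cxcl2, Cxcl16 and Cxcl9 came next at 78.1, 74.8 and 53.2 FPKM with ranges that overlapped from each gene to the next, then Cxcl11 at 24.9, Cxcl12 at 14.7 and Cxcl5 at 11.5 FPKM, the last pair with overlapping ranges, and Cxcl14 and Cxcl13 came last at 2.00 and 1.96 FPKM. In EtOH libraries the order was led by Cxcl12 at 29.0 ± 11.3 FPKM and Cxcl16 at 23.7 ± 3.19 FPKM (SD, n = 3), with overlapping ranges, and Cxcl14 followed at 3.20 FPKM. Cxcl10 and Cxcl1 were at 1.52 and 0.949 FPKM there, and Cxcl2, Cxcl11, Cxcl13 and Cxcl5 were all under 0.2 FPKM on average.

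PF4hLPS libraries had the same leading pair, Cxcl10 at 1766 ± 246 FPKM and Cxcl1 at 313 ± 27.0 FPKM (SD, n = 3), but Cxcl2 stood lower there, at 30.2 FPKM, below Cxcl16 at 69.9 and Cxcl9 at 66.5 FPKM and in overlap with Cxcl11 at 23.3 FPKM. PF libraries were led by Cxcl12 at 23.7 ± 3.19 FPKM and Cxcl16 at 18.0 ± 3.63 FPKM (SD, n = 3), again with overlapping ranges, and Cxcl14 and Cxcl10 followed at 2.89 and 2.38 FPKM. FPKM are scaled by transcript length, which is what allows these genes to be ranked against each other.

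**Figure D2:**
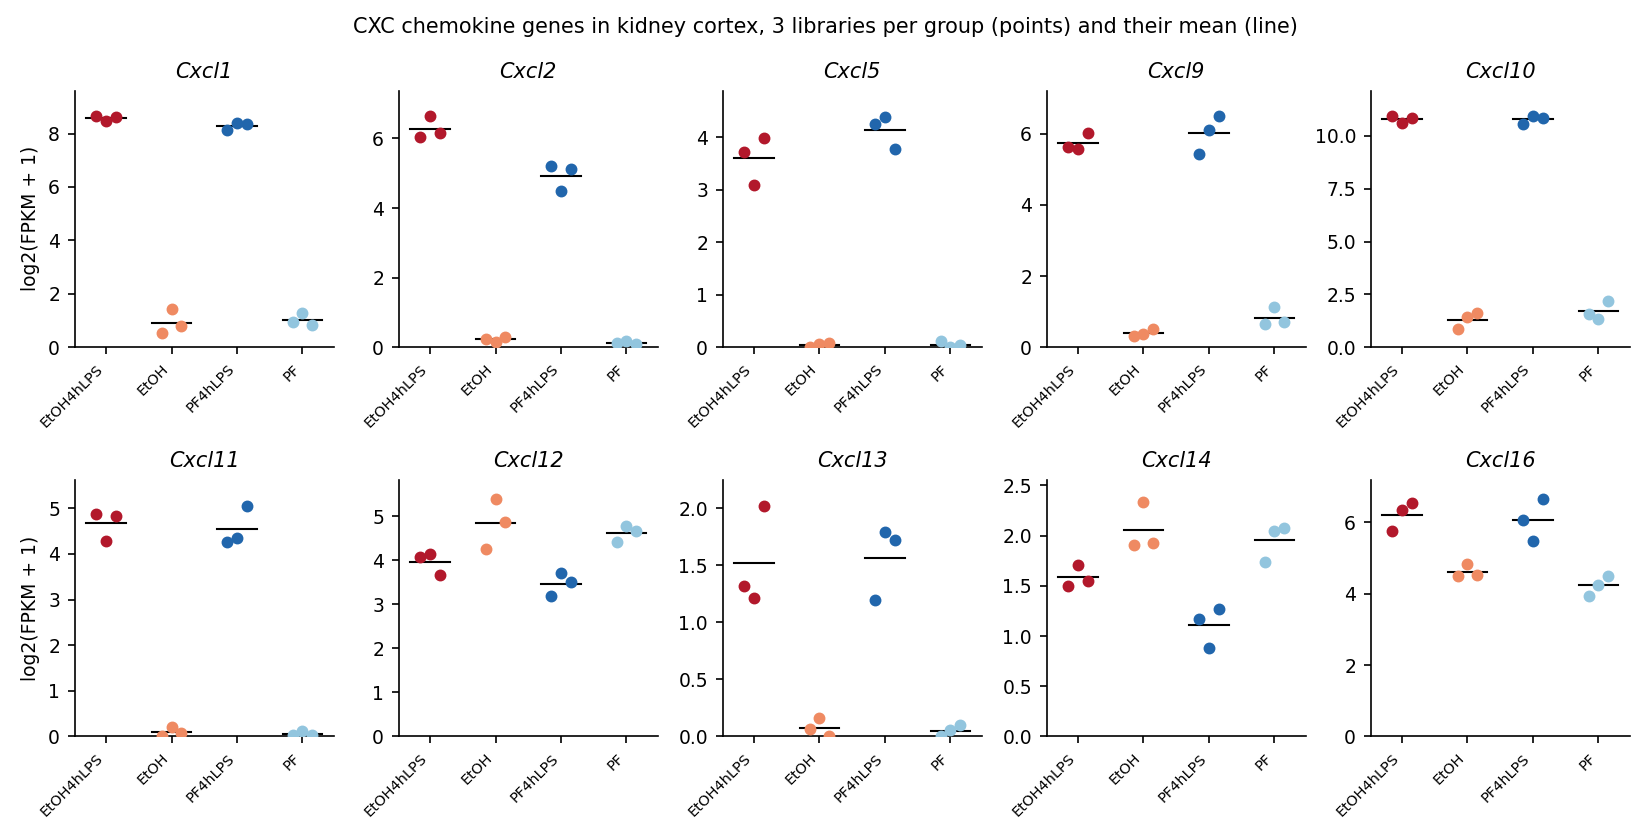
log2(FPKM + 1) of each of the 10 genes in every library (points, 3 per group) with the group mean (line), by group from left to right EtOH4hLPS, EtOH, PF4hLPS and PF; the vertical scale differs between panels and starts at 0. LPS libraries lie above saline libraries for 8 genes and below them for Cxcl12 and Cxcl14, and Cxcl2 is higher in EtOH4hLPS than in PF4hLPS libraries.

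LPS raised 8 of the 10 genes in ethanol-fed mice and the same 8 in pair-fed mice, and lowered Cxcl12 in both. Called genes are those with a Benjamini-Hochberg adjusted p under 0.05 in limma over 14109 genes, tested on log2(FPKM + 1). In EtOH4hLPS against EtOH, 8 members were higher, where 10.7% of all tested genes were higher, and 1 was lower, where 6.39% of all tested genes were lower. In PF4hLPS against PF, 8 members were higher, against 11.3% of all tested genes, and 2 were lower, against 6.89%. Groups did not overlap for any of the 10 members in either comparison, while they did not overlap for 33.6% of all tested genes in ethanol-fed and 34.2% in pair-fed mice. All 10 members passed the filter of 1 FPKM in at least 3 libraries. Cxcl2, Cxcl5, Cxcl11 and Cxcl13 did so through LPS libraries alone, and Cxcl1 and Cxcl9 needed them as well. For these 6 the filter favours higher values with LPS, so the counts are a description. Both comparisons are separate in their samples, so each gives its own value below.

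Among the neutrophil-attracting genes, Cxcl1 was the most abundant with LPS and had the highest fold change on the log2(FPKM + 1) scale, which lowers the folds of genes near 0 in saline libraries, such as Cxcl2 and Cxcl5, more than that of Cxcl1. Cxcl1 had 404, 354 and 394 FPKM in EtOH4hLPS libraries, against 0.429, 1.67 and 0.753 FPKM in EtOH libraries. It had 282, 332 and 324 FPKM in PF4hLPS libraries, against 0.927, 1.425 and 0.793 FPKM in PF libraries. Every LPS library was more than 100-fold above every saline library of either diet. With LPS the log2 fold change was 7.67 ± 0.22 (SE, adjusted p = 5.79e-10) in ethanol-fed mice and 7.27 ± 0.22 (SE, adjusted p = 7.45e-10) in pair-fed mice, the 5th and 7th highest of 14109 genes.

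Cxcl2, whose protein is made mainly by macrophages, mast cells and neutrophils in mice, had 65.3, 98.2 and 70.8 FPKM in EtOH4hLPS libraries, against 0.187, 0.121 and 0.215 FPKM in EtOH libraries. In PF4hLPS libraries it had 35.8, 21.5 and 33.5 FPKM, against 0.0870, 0.132 and 0.0562 FPKM in PF libraries. Saline values were near 0 in all 6 libraries, and the lowest EtOH4hLPS library was above the highest PF4hLPS library. The log2 fold change with LPS was 6.05 ± 0.21 (SE, adjusted p = 2.76e-09) in ethanol-fed mice and 4.81 ± 0.21 (SE, adjusted p = 1.61e-08) in pair-fed mice. Of 50-base stretches of Cxcl2 transcripts, 5.84% also occur in Cxcl3, so a small part of its fragments may be shared between those genes.

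Cxcl5, in mice a product of epithelial cells and platelets among others, had 12.2, 7.55 and 14.9 FPKM in EtOH4hLPS libraries, against 0, 0.0399 and 0.0610 FPKM in EtOH libraries. PF4hLPS libraries held 18.0, 19.95 and 12.7 FPKM, against 0.0862, 0 and 0.0240 FPKM in PF libraries. It was the least abundant of its class and, unlike Cxcl1 and Cxcl2, its mean was numerically lower in EtOH4hLPS than in PF4hLPS libraries, with ranges that overlapped. The log2 fold change was 3.56 ± 0.23 (SE, adjusted p = 4.20e-07) in ethanol-fed and 4.09 ± 0.23 (SE, adjusted p = 1.14e-07) in pair-fed mice. With saline values this near 0, folds on the log2(FPKM + 1) scale understate the change.

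Cxcl10 led the interferon-induced class and had the largest LPS fold change of all 14109 tested genes in both diets on the log2(FPKM + 1) scale, a rank that depends on the added 1 FPKM. Its FPKM were 1985, 1567 and 1855 in EtOH4hLPS libraries, against 0.814, 1.67 and 2.07 in EtOH libraries. PF4hLPS libraries had 1488, 1954 and 1856 FPKM, against 2.01, 1.53 and 3.58 FPKM in PF libraries. LPS values of the diets overlapped, and no saline library exceeded 3.58 FPKM. Fitted with limma, the log2 fold change was 9.51 ± 0.26 (SE, adjusted p = 3.84e-10) in ethanol-fed and 9.07 ± 0.26 (SE, adjusted p = 5.33e-10) in pair-fed mice.

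Cxcl9, the class member most dependent on interferon-gamma, had 48.8, 46.1 and 64.6 FPKM in EtOH4hLPS libraries, against 0.252, 0.294 and 0.421 FPKM in EtOH libraries. It had 41.9, 68.2 and 89.4 FPKM in PF4hLPS libraries, against 0.558, 1.17 and 0.637 FPKM in PF libraries. LPS libraries were far above saline libraries, and those of the 2 diets overlapped. Its log2 fold change was 5.34 ± 0.26 (SE, adjusted p = 3.64e-08) in ethanol-fed and 5.19 ± 0.26 (SE, adjusted p = 3.94e-08) in pair-fed mice. Within a library, Cxcl9 amounted to 0.0246 to 0.0348 of Cxcl10 FPKM in EtOH4hLPS and 0.0282 to 0.0482 in PF4hLPS libraries, against 0.175 to 0.309 in EtOH and 0.178 to 0.764 in PF libraries.

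Cxcl11 is annotated as a polymorphic pseudogene, since the C57BL/6 allele is known to carry a frameshift, so its values are RNA levels of a gene that is not expected to give the full protein in these mice. It had 28.4, 18.5 and 27.7 FPKM in EtOH4hLPS libraries, against 0, 0.159 and 0.0607 FPKM in EtOH libraries. PF4hLPS libraries held 18.2, 19.3 and 32.25 FPKM, against 0.0286, 0.0868 and 0.0238 FPKM in PF libraries. Its log2 fold change was 4.57 ± 0.23 (SE, adjusted p = 4.68e-08) in ethanol-fed and 4.49 ± 0.23 (SE, adjusted p = 4.89e-08) in pair-fed mice. Art3 on the opposite strand overlaps Cxcl11, sharing with other overlapping genes 40.4% of its 50-base stretches, and Cxcl10, sharing 3.59%. Art3 itself had 5.08 to 10.4 FPKM in EtOH4hLPS and 2.27 to 2.31 FPKM in EtOH libraries, and 4.75 to 6.16 FPKM in PF4hLPS and 2.03 to 2.88 FPKM in PF libraries; the counting's strand setting is not given in the sources used here, and the part of shared fragments was not tested.

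**Figure D3:**
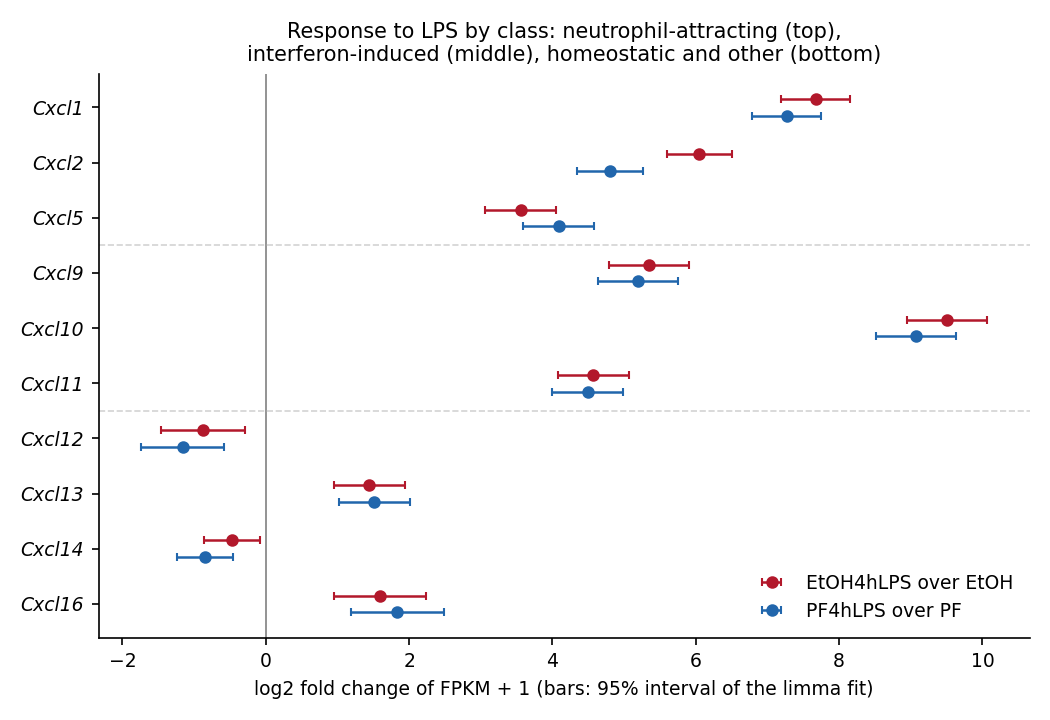
log2 fold change of FPKM + 1 with LPS for each gene, EtOH4hLPS over EtOH (red, upper) and PF4hLPS over PF (blue, lower), with 95% intervals of the limma fit; dashed lines separate the neutrophil-attracting, interferon-induced and homeostatic classes. Cxcl10 has the highest value in both diets (9.51 and 9.07), and Cxcl12 and Cxcl14 lie below 0.

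The homeostatic and other class split in opposite directions under LPS. Cxcl16 and Cxcl13 rose in both diets, Cxcl12 fell in both, and Cxcl14 fell in pair-fed mice. Cxcl12, which retains Cxcr4-bearing cells and is made by endothelium and stroma, had 15.9, 16.7 and 11.6 FPKM in EtOH4hLPS libraries, against 18.2, 40.8 and 28.01 FPKM in EtOH libraries. It had 8.10, 11.99 and 10.3 FPKM in PF4hLPS libraries, against 20.3, 26.55 and 24.4 FPKM in PF libraries. Every LPS library was below every saline library, and EtOH library 2 stood above the rest. With LPS the log2 fold change was -0.87 ± 0.27 (SE, adjusted p = 0.0424) in ethanol-fed and -1.16 ± 0.27 (SE, adjusted p = 0.0102) in pair-fed mice. The ethanol-fed call was lost in 9 of 12 fits that left out 1 library, most of all without EtOH replicate 2 (-0.60, adjusted p = 0.166), and without filtering or with only the EtOH4hLPS and EtOH libraries in the fit (adjusted p = 0.122 and 0.0871).

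Cxcl14, an epithelial chemokine, had 1.83, 2.27 and 1.92 FPKM in EtOH4hLPS libraries, against 2.75, 4.06 and 2.79 FPKM in EtOH libraries. It had 1.24, 0.842 and 1.41 FPKM in PF4hLPS libraries, against 2.34, 3.13 and 3.21 FPKM in PF libraries. LPS libraries were the lower ones in both diets and did not overlap with saline libraries. The log2 fold change was -0.47 ± 0.18 (SE, adjusted p = 0.101) in ethanol-fed mice, where it missed the threshold, and -0.85 ± 0.18 (SE, adjusted p = 0.00635) in pair-fed mice, and the difference between the diets was 0.37 ± 0.25 (SE, adjusted p = 0.9875).

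Cxcl16 was abundant in saline libraries already and rose further with LPS. It had 52.8, 79.7 and 91.99 FPKM in EtOH4hLPS libraries, against 21.6, 27.4 and 22.1 FPKM in EtOH libraries. PF4hLPS libraries held 66.4, 43.7 and 99.6 FPKM, against 14.4, 18.0 and 21.7 FPKM in PF libraries. The lowest LPS library, PF4hLPS 2, was still above the highest saline library of both diets. Fitted with limma, the log2 fold change was 1.59 ± 0.29 (SE, adjusted p = 0.00271) in ethanol-fed and 1.84 ± 0.29 (SE, adjusted p = 0.000939) in pair-fed mice. Zmynd15 overlaps it on the other strand with 16.9% of its 50-base stretches and had 1.92 to 5.74 FPKM in EtOH4hLPS and 0.899 to 1.21 FPKM in EtOH libraries, far below Cxcl16.

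Cxcl13, the B cell attractant, stayed low but was detected in every LPS library, at 1.499, 1.31 and 3.06 FPKM in EtOH4hLPS, against 0.0448, 0.116 and 0 FPKM in EtOH libraries. PF4hLPS libraries had 1.29, 2.46 and 2.30 FPKM, against 0, 0.0422 and 0.0695 FPKM in PF libraries. LPS and saline libraries were well apart, and the diets overlapped. With LPS the log2 fold change was 1.44 ± 0.23 (SE, adjusted p = 0.000861) in ethanol-fed and 1.52 ± 0.23 (SE, adjusted p = 0.000575) in pair-fed mice.

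As classes, the median log2 fold change with LPS in ethanol-fed mice was 6.05 for the neutrophil-attracting genes, 5.34 for the interferon-induced genes and 0.49 for the homeostatic genes, against 0.0177 over all tested genes. In pair-fed mice the medians were 4.81, 5.19 and 0.33, against -0.00651 over all tested genes. The makeup of the summed FPKM turned over with LPS. Homeostatic genes held 2.75 to 4.57% of the 10-gene sum in EtOH4hLPS libraries, against 93.7 to 96.2% in EtOH libraries, and 2.38 to 4.62% in PF4hLPS libraries, against 90.6 to 91.7% in PF libraries. Cxcl10 alone held 71.5 to 75.9% of the sum in EtOH4hLPS and 75.4 to 79.0% in PF4hLPS libraries. The sum itself was 2191 to 2616 FPKM in EtOH4hLPS, against 44.2 to 76.3 FPKM in EtOH libraries, and 1960 to 2475 FPKM in PF4hLPS, against 40.7 to 54.5 FPKM in PF libraries.

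The balance between the induced classes under LPS is given per library, as a description. Interferon-induced genes summed to 4.29, 3.55 and 4.06 times the neutrophil-attracting genes in EtOH4hLPS libraries, and to 4.61, 5.46 and 5.34 times in PF4hLPS libraries. All 3 EtOH4hLPS ratios were below all 3 PF4hLPS ratios. The neutrophil-attracting share was 18.4, 20.97 and 18.9% of the 10-gene sum in EtOH4hLPS libraries and 17.1, 15.1 and 15.04% in PF4hLPS libraries. These sums are dominated by Cxcl1 and Cxcl10, neither of which passed the threshold between the diets, and no test was made of the ratios or shares.

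**Figure D4:**
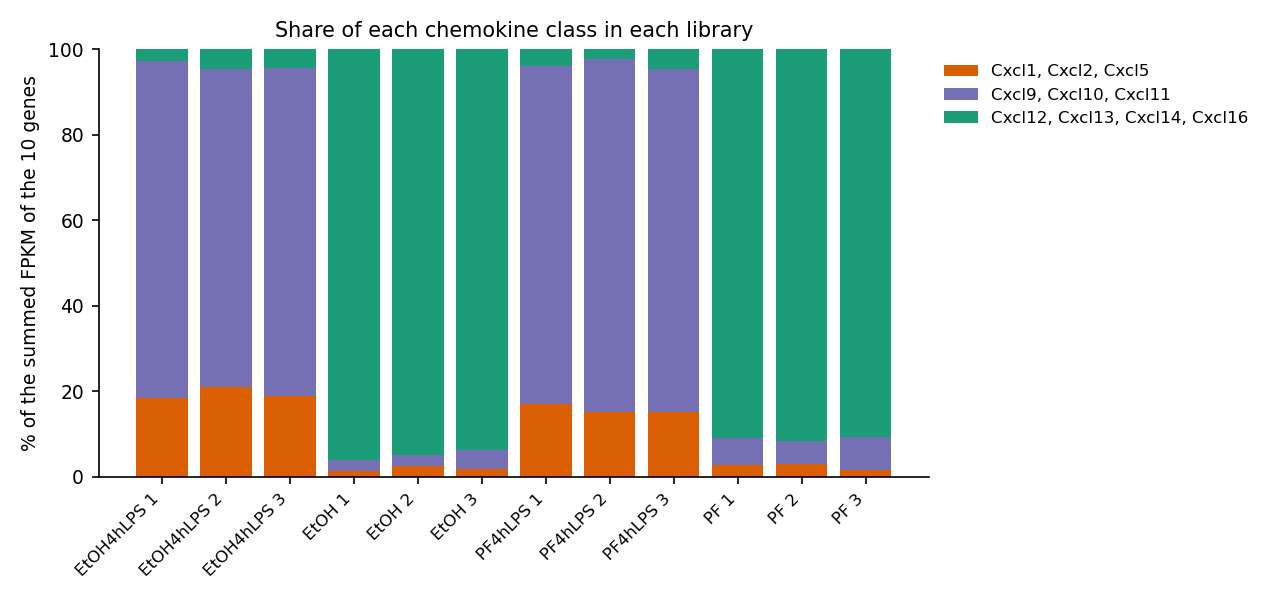
Share of each chemokine class in the summed FPKM of the 10 genes, 1 bar per library, in the order EtOH4hLPS, EtOH, PF4hLPS and PF. Homeostatic genes make up over 90% in saline libraries and under 5% in LPS libraries, where Cxcl9, Cxcl10 and Cxcl11 together hold the most.

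Ethanol feeding was compared under LPS, and Cxcl2 was the member that differed. In EtOH4hLPS against PF4hLPS, 1 of 10 members (Cxcl2, higher) passed the threshold, where 0.0992% of all tested genes, 14 genes, passed in either direction. Cxcl2 averaged 78.1 ± 17.6 FPKM in EtOH4hLPS libraries and 30.2 ± 7.69 FPKM in PF4hLPS libraries (SD, n = 3 each). Its log2 fold change was 1.35 ± 0.21 (SE), with a 95% interval of 0.89 to 1.81 and an adjusted p of 0.0488. That call sat at the edge of the threshold: over 23 alternative fits the log2 fold change stayed between 1.13 and 1.60 and the adjusted p ranged from 0.0395 to 0.582, with 5 fits under 0.05. It was lost in 10 of 12 fits that left out 1 library (adjusted p up to 0.196, without EtOH4hLPS replicate 2) and with only the EtOH4hLPS and PF4hLPS libraries in the fit (adjusted p = 0.582).

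Groups did not overlap for 3 members under LPS (Cxcl1, Cxcl2 and Cxcl14, all higher in EtOH4hLPS), while they did not overlap for 10.9% of all tested genes. Cxcl1 averaged 384 ± 26.5 FPKM in EtOH4hLPS and 313 ± 27.0 FPKM in PF4hLPS libraries (SD, n = 3 each), a log2 difference of 0.30 with an interval of -0.18 to 0.77 (adjusted p = 0.656). Cxcl14 differed by 0.48, with an interval of 0.09 to 0.87 (adjusted p = 0.362). Neither passed the threshold.

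Cxcl5 went the other way in its mean, at 11.5 ± 3.70 FPKM in EtOH4hLPS and 16.9 ± 3.73 FPKM in PF4hLPS libraries (SD, n = 3 each), a log2 difference of -0.54 with an interval of -1.03 to -0.04 and an adjusted p of 0.432. The means of the neutrophil-attracting genes thus did not share 1 direction, though neither the Cxcl1 nor the Cxcl5 difference passed the threshold. Within a library, Cxcl2 amounted to 0.162, 0.278 and 0.180 of Cxcl1 FPKM in EtOH4hLPS libraries, against 0.127, 0.0646 and 0.103 in PF4hLPS libraries. Cxcl5 amounted to 0.0302, 0.0214 and 0.0377 of Cxcl1 in EtOH4hLPS libraries, against 0.0638, 0.0601 and 0.0393 in PF4hLPS libraries. Neither ratio overlapped between diets, though those of Cxcl5 came close, at 0.0377 and 0.0393. For scale, 10.9% of all tested genes did not overlap between these groups. No test was made of the ratios, which are a description. Both are built from the same values as the differences above, so they are not separate evidence. Transcript GC was 44.9% for Cxcl1, 48.2% for Cxcl2 and 39.6% for Cxcl5, so a GC slope need not cancel in them. PF4hLPS library 2 and EtOH4hLPS library 1, with the lowest GC slopes within their groups, had the lowest Cxcl2 ratios there. For Cxcl5 both stood in the middle of their groups. The part of GC in the ratios was not tested.

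No interferon-induced member passed the threshold under LPS. The log2 difference was -0.27 for Cxcl9 (interval -0.83 to 0.29), 0.03 for Cxcl10 (-0.53 to 0.59) and 0.11 for Cxcl11 (-0.38 to 0.61), EtOH4hLPS over PF4hLPS. Together these intervals reach as far as -0.83 on the low side and 0.61 on the high side. Differences inside a gene's own interval were not excluded. The intervals set no limit of detection, since calls rest on p-values adjusted over all tested genes. Among the homeostatic genes, Cxcl12 differed by 0.50 (interval -0.08 to 1.08), Cxcl13 by -0.05 (-0.55 to 0.45) and Cxcl16 by 0.14 (-0.51 to 0.78), with adjusted p-values of 0.519, 0.957 and 0.894.

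**Figure D5:**
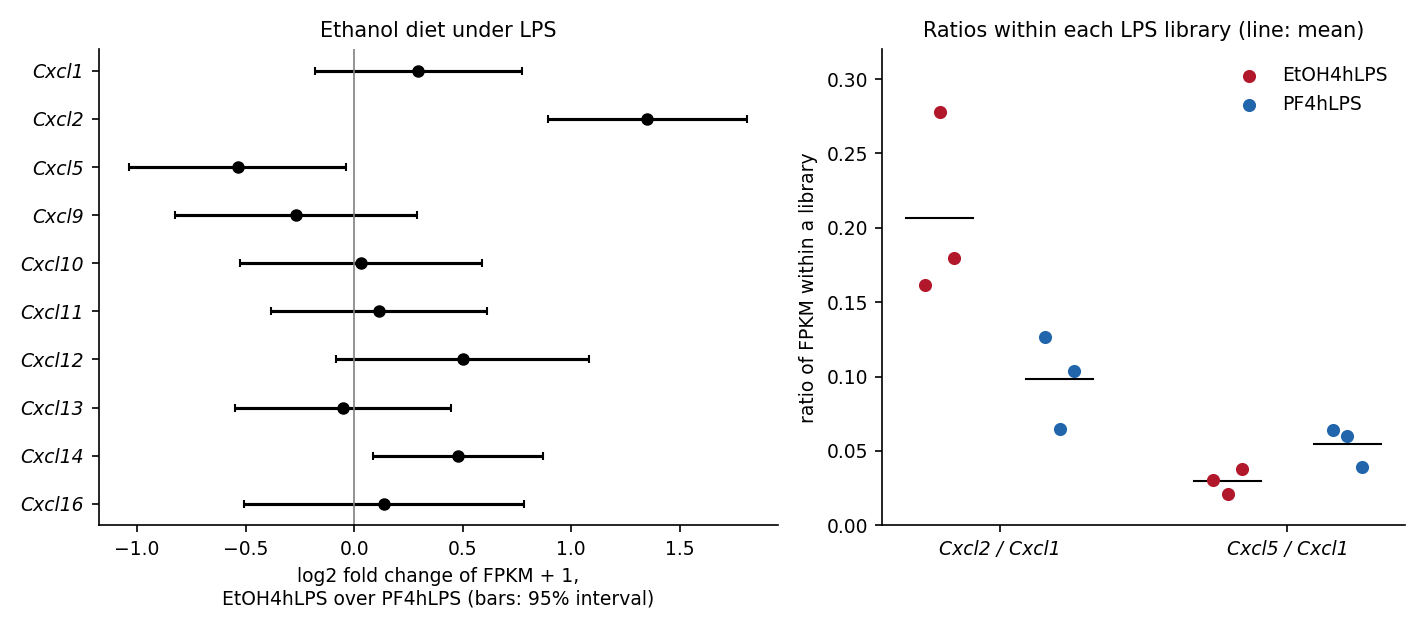
Left, log2 fold change of FPKM + 1 of each gene, EtOH4hLPS over PF4hLPS, with 95% intervals of the limma fit; right, ratio of Cxcl2 and of Cxcl5 to Cxcl1 FPKM in each LPS library (points; line, mean), EtOH4hLPS left of PF4hLPS. Cxcl2 has the largest difference (1.35), and its ratio to Cxcl1 is 0.162 to 0.278 in EtOH4hLPS and 0.0646 to 0.127 in PF4hLPS libraries.

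Without LPS, no member passed the threshold for ethanol feeding, where 0.0284% of all tested genes, 4 genes, did. Cxcl9 was the only member whose groups did not overlap, against 12.6% of all tested genes. It was lower in EtOH libraries (0.252 to 0.421 FPKM) than in PF libraries (0.558 to 1.17 FPKM), a log2 difference of -0.42 with an interval of -0.98 to 0.14, an unadjusted p of 0.125 and an adjusted p of 1, and 0 members had an unadjusted p under 0.05, against 521 of all 14109 tested genes. Cxcl10 averaged 1.52 ± 0.64 FPKM in EtOH and 2.38 ± 1.07 FPKM in PF libraries (SD, n = 3 each), with overlapping ranges. Over both LPS states, 0 members passed, where 0.319% of all tested genes, 45 genes, did, and 2 members (Cxcl2 and Cxcl14) had an unadjusted p under 0.05, as did 1334 of all 14109 tested genes. Cxcl2 came nearest, at 0.73 ± 0.15 (SE, adjusted p = 0.0810).

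The interaction, the LPS response in ethanol-fed minus that in pair-fed mice, passed for 0 members, where it did for 0.0284% of all tested genes, 4 genes. Cxcl2 had the lowest unadjusted p, 0.00134, at 1.25 ± 0.30 (SE) with an adjusted p of 0.847, and it was the only member with an unadjusted p under 0.05, a level that 616 of all 14109 tested genes reached. The other members had interactions between -0.53 (Cxcl5) and 0.44 (Cxcl10), all with adjusted p-values of 0.9875 or more. A difference between diets in the Cxcl2 response was therefore not called.

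Of 5 further CXC ligand genes, 3 were tested. Cxcl3, a close paralog of Cxcl2, was higher with LPS in both diets, at 1.67, 2.65 and 4.01 FPKM in EtOH4hLPS libraries, against 0, 0.0166 and 0.0127 FPKM in EtOH libraries, and at 2.74, 1.085 and 1.13 FPKM in PF4hLPS libraries, against 0.0485, 0 and 0 FPKM in PF libraries. Its log2 fold change was 1.86 ± 0.26 (SE, adjusted p = 0.000335) in ethanol-fed and 1.33 ± 0.26 (SE, adjusted p = 0.00361) in pair-fed mice. It too passed the filter through LPS libraries alone. Cxcl15 and Cxcl17 stayed at or under 0.228 FPKM in all libraries.

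The platelet chemokines Ppbp and Pf4, stored in alpha granules, passed the filter through pair-fed libraries alone, which favours lower values with ethanol. Their values are therefore a description. Ppbp was called lower in ethanol-fed mice averaged over LPS state. It had 0.336, 0.450 and 0.470 FPKM in EtOH4hLPS libraries, against 1.38, 1.37 and 1.497 FPKM in PF4hLPS libraries, and 0.241, 0.373 and 0.476 FPKM in EtOH libraries, against 0.806, 0.817 and 0.972 FPKM in PF libraries. All 6 ethanol libraries were below all 6 pair-fed libraries. Averaged over LPS state the log2 difference was -0.61 ± 0.10 (SE, adjusted p = 0.0306), a call kept in 5 of 21 alternative fits (adjusted p 0.0314 to 0.124), and Ppbp passed the filter only through the PF4hLPS libraries. Pf4 had 0.307, 0.716 and 0.248 FPKM in EtOH4hLPS libraries, against 1.08, 1.91 and 2.89 FPKM in PF4hLPS libraries, with an averaged log2 difference of -0.84 ± 0.16 (SE, adjusted p = 0.0626) that missed the threshold.

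Of 12 receptor genes, 5 passed the filter, and Ccrl2, an atypical receptor that presents chemerin, was the 1 that rose in each diet. With LPS, 10.7% of all tested genes were higher in ethanol-fed and 11.3% in pair-fed mice. Ccrl2 had 14.8, 12.8 and 18.7 FPKM in EtOH4hLPS libraries, against 1.15, 1.265 and 2.07 FPKM in EtOH libraries, and its log2 fold change was 2.72 ± 0.31 (SE, adjusted p = 6.11e-05) there and 2.71 ± 0.31 (SE, adjusted p = 5.95e-05) in pair-fed mice. Cxcr2, the receptor of the neutrophil-attracting ligands, had 0.546 to 0.796 FPKM in EtOH4hLPS and 0.133 to 0.3285 FPKM in EtOH libraries, and 0.708 to 1.64 FPKM in PF4hLPS and 0.150 to 0.225 FPKM in PF libraries, and it did not pass the filter. Cxcr3, the receptor of Cxcl9, Cxcl10 and Cxcl11, was at or under 0.167 FPKM in every library with ligand values of up to 1985 FPKM for Cxcl10.

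Receptors of the homeostatic ligands did not pass the threshold. Ackr3, the scavenging receptor of Cxcl12, had 9.15, 10.8 and 27.75 FPKM in EtOH4hLPS libraries, against 5.54, 5.83 and 7.66 FPKM in EtOH libraries, with a log2 difference of 1.053 ± 0.36 (SE, adjusted p = 0.0685). Cxcr4 differed by 0.41 ± 0.36 (SE, adjusted p = 0.511) in ethanol-fed mice. Cxcr6 differed by 0.13 ± 0.18 (SE, adjusted p = 0.720) in the same comparison. All of these missed the threshold in pair-fed mice too.

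Among 12 genes that process or anchor chemokines, 9 were tested, and 5 rose with LPS in ethanol-fed and 4 in pair-fed mice, with none lower. Over all tested genes, 10.7% were higher in ethanol-fed and 11.3% in pair-fed mice. Mmp8 and Timp1 passed the filter through LPS libraries alone and Mmp14 needed them. That favours higher values with LPS, so the counts are a description. Those called in both were Mmp8, Timp1, Sdc1 and Sdc4, and Mmp14 passed in ethanol-fed mice alone, a difference between diets that was not called (adjusted p = 0.9875). Sdc4, a heparan sulfate proteoglycan that binds chemokines at the cell surface, had 347, 663 and 574.5 FPKM in EtOH4hLPS libraries, against 91.2, 89.1 and 93.5 FPKM in EtOH libraries (log2 fold change 2.47 ± 0.25, SE, adjusted p = 2.58e-05). Dpp4, the peptidase that clips Cxcl9, Cxcl10, Cxcl11 and Cxcl12, differed by -0.31 ± 0.28 (SE, adjusted p = 0.542), and the Cxcl16 sheddases Adam10 and Adam17 differed by 0.02 ± 0.26 and 0.31 ± 0.18 (SE), all short of the threshold.

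Most tested genes for inducing cytokines and their receptors rose with LPS as well. Of 17 such genes, 13 were tested, and 12 rose in ethanol-fed and 11 in pair-fed mice. Over all tested genes, 10.7% were higher in ethanol-fed and 11.3% in pair-fed mice. Tnf, Tnfrsf1b, Il6, Csf2 and Csf3 passed the filter through LPS libraries alone, which favours higher values with LPS, so the count is a description. Of these, Csf2 was not called in ethanol-fed mice (log2 fold change 0.65, adjusted p = 0.0835 in limma). Il6 had 122, 107 and 87.55 FPKM in EtOH4hLPS libraries, against 0.189, 0.0256 and 0.0937 FPKM in EtOH libraries, and Il1b had 27.2, 43.4 and 28.2 FPKM, against 2.58, 2.75 and 0.776 FPKM. Tnf, at 1.14 to 1.76 FPKM in EtOH4hLPS and 0.0333 to 0.0870 FPKM in EtOH libraries, had a log2 fold change of 1.21 ± 0.17 (SE). Ifng and Ifnb1 did not pass the filter, at 0.236 to 0.876 FPKM and 0.108 to 0.567 FPKM in EtOH4hLPS libraries, against 0 in all EtOH libraries for both, where a listed 0 can also be a value that was not estimated.

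All but Nfkbib of 14 genes for NF-kB factors and their feedback regulators rose with LPS in both diets. Of all tested genes, 10.7% were higher in ethanol-fed and 11.3% in pair-fed mice. The median log2 fold change over the list was 2.61 in ethanol-fed and 2.12 in pair-fed mice. Rel and Zc3h12a passed the filter through LPS libraries alone, and Relb and Nfkbie needed them. Nfkbia, the inhibitor that NF-kB itself induces, rose by 3.50 ± 0.19 (SE, adjusted p = 1.00e-07) in ethanol-fed and 2.95 ± 0.19 (SE, adjusted p = 4.63e-07) in pair-fed mice. Of 16 interferon pathway factors, 14 rose in ethanol-fed and 13 in pair-fed mice, against the same 10.7% and 11.3% of all tested genes. Their medians were 2.56 in ethanol-fed and 2.32 in pair-fed mice. Socs1 and Socs3 passed the filter through LPS libraries alone. Irf1 rose by 5.05 ± 0.43 (SE, adjusted p = 6.39e-06) in ethanol-fed and by 4.29 ± 0.43 (SE, adjusted p = 2.53e-05) in pair-fed mice. With ethanol under LPS, no gene of these lists passed the threshold, where 0.0992% of all tested genes did. At so low a share, the absence of calls says little of these lists. The NF-kB list had a median log2 difference of 0.42 and the interferon list of -0.06, EtOH4hLPS over PF4hLPS, against -0.00266 over all genes.

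Most tested neutrophil markers were higher with LPS, and their part in the chemokine levels was not tested. The 16 neutrophil markers summed to 177 to 273 FPKM in EtOH4hLPS libraries, against 4.43 to 8.15 FPKM in EtOH libraries, and to 198 to 440 FPKM in PF4hLPS libraries, against 4.63 to 7.53 FPKM in PF libraries. S100a8 and S100a9 held most of the sums with LPS, with means of 75.7 and 118 FPKM in EtOH4hLPS and 111 and 145.5 FPKM in PF4hLPS libraries. Of 9 tested, 6 rose in ethanol-fed and 8 in pair-fed mice, against 10.7% and 11.3% of all tested genes. They were led by S100a8 and S100a9, which other cells can also express. Of the tested markers Mmp8, Retnlg, Ngp, Fpr1, Il1r2 and Csf3r passed the filter through LPS libraries alone and Ltf needed them, so the count is a description. Mmp9 and Mpo did not pass the filter, and their LPS and saline values overlapped in both diets. Mmp9 averaged 0.159 FPKM in EtOH4hLPS and 0.278 FPKM in EtOH libraries, and 0.304 FPKM in PF4hLPS and 0.204 FPKM in PF libraries. Ly6g, which defines mouse neutrophils, had 0, 0.840 and 0.0701 FPKM in EtOH4hLPS libraries and 0 in all EtOH libraries, and 0.0718, 0 and 0.155 FPKM in PF4hLPS libraries and 0, 0.0541 and 0 FPKM in PF libraries, and Elane was listed at 0 in all EtOH4hLPS libraries. Between the diets under LPS, where Cxcl2 was higher in EtOH4hLPS, none of the tested neutrophil markers passed the threshold. Only 0.0992% of all tested genes did, so the absence of calls says little of these markers. The median of the tested ones was -0.32, EtOH4hLPS over PF4hLPS.

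T and NK cell markers stayed low, at summed levels of 4.67 to 7.07 FPKM in EtOH4hLPS libraries, against 4.13 to 4.95 FPKM in EtOH libraries, and 5.98 to 9.51 FPKM in PF4hLPS libraries, against 3.15 to 4.41 FPKM in PF libraries, over 16 genes. Of 3 tested, 1 passed the threshold, Gzmb, where 10.7% (ethanol-fed) and 11.3% (pair-fed) of all tested genes were higher. Its log2 fold change was 1.38 ± 0.21 (SE) in ethanol-fed and 1.92 ± 0.21 (SE) in pair-fed mice. Gzmb and Trac passed the filter through LPS libraries alone, which favours higher values with LPS, and Trac did not pass the threshold. Cd5 was listed at 0 in all EtOH4hLPS libraries. The 8 B cell markers summed to 2.54 to 3.72 FPKM in EtOH4hLPS and 2.71 to 3.70 FPKM in EtOH libraries, and the 1 that was tested, Cr2, did not pass. Of 13 macrophage and dendritic cell markers 10 were tested, and Ccr2 fell in both diets, by 1.37 in ethanol-fed and 1.04 in pair-fed mice on the log2 scale. Lyz2 and Ly6c2 passed as higher in pair-fed mice, Ly6c2 having met the filter through LPS libraries alone. Of all tested genes, 6.39% were lower in ethanol-fed mice, and 6.89% were lower and 11.3% higher in pair-fed mice. The summed level of the list was 18.1 to 29.6 FPKM in EtOH4hLPS libraries, against 22.1 to 28.3 FPKM in EtOH libraries, and 23.3 to 65.75 FPKM in PF4hLPS libraries, against 23.1 to 33.1 FPKM in PF libraries.

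Endothelial markers, of the cells that make Cxcl12 among others, fell alongside it. Their sum over 5 genes was 37.5 to 48.4 FPKM in EtOH4hLPS libraries, against 89.9 to 109.7 FPKM in EtOH libraries, and 31.4 to 37.4 FPKM in PF4hLPS libraries, against 83.7 to 102.1 FPKM in PF libraries. Pecam1, Kdr, Emcn and Tek fell in both diets, and Cdh5 rose, by 1.26 ± 0.23 (SE, adjusted p = 0.00257) in ethanol-fed and 1.09 ± 0.23 (SE, adjusted p = 0.00651) in pair-fed mice. Their part in the Cxcl12 values was not tested. Of 5 stromal markers, Dcn rose and Col1a2 fell in each diet. For scale, 10.7% of all tested genes were higher and 6.39% lower in ethanol-fed mice. In pair-fed mice these shares were 11.3% and 6.89%.

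Across the 12 libraries, which share the LPS and saline split, the protein-coding genes with the pattern most like each member were found by correlation. Over 11352 candidate genes, Pearson r of log2(FPKM + 1) was highest for Cd44, Cd274 and Ccl2 with Cxcl1 (0.998 for Cd44) and for Nfkbia, Akap12 and Rnd1 with Cxcl2 (0.997 for Nfkbia). Cxcl5 was nearest to Trim30a, Eif2ak2 and Herc6, Cxcl9 to Rtp4, Irak3 and Gbp4, Cxcl10 to Gbp5, Ifit2 and Irgm1, and Cxcl11 to Acod1, Rtp4 and Ifi208, with r of at least 0.994 throughout. Lower values were found for the homeostatic genes, with 0.964 between Cxcl12 and Lbh, 0.986 between Cxcl13 and Il1f6, 0.985 between Cxcl14 and Angptl2, and 0.983 between Cxcl16 and Cd200. With LPS and saline libraries lying in separate clusters, these values describe similarity of pattern and carry no test.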

How the data were processed

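RNA of kidney cortex was measured in 12 libraries. The authors deposited FPKM (fragments per kilobase of transcript, scaled to library size) for 47719 Ensembl genes; the submitters' processing notes list Cuffnorm, Cuffdiff 2.1.1, Cufflinks 2.2.1, TopHat2 2.0.4 and FastQC 0.10.1, and the build mm10. The library kit is stranded per the labels' protocols, but neither the annotation release nor the counting's strand setting is given in the sources used here. FPKM are not counts, so no count model was run, and steps between low values did not give whole fragments (the modal step covered 27.8 to 33.8% of low genes).

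Symbols came from GENCODE M21, which matched 47305 identifiers. The 14109 genes that reached 1 FPKM in 3 or more libraries were tested on log2(FPKM + 1) in limma 3.58.1 (R 4.3.3), with 1 mean per group over all 12 libraries, intensity trend and robust prior, two-sided, and Benjamini-Hochberg adjustment over all tested genes at a threshold of 0.05. The series design names 5 contrasts; the interaction was added. The fit was also run on simulated data with independent normal noise, in which changed genes were set at high levels. That run says nothing of members near 0 in saline libraries. With 3 against 3 libraries an exact permutation test cannot go below p = 0.1, so none is given. All 10 members are named, with genes of 18 lists (158 genes) and, for each member, the 3 protein-coding genes with the highest Pearson r. Members and lists were chosen with earlier results of these data known. Alternatives were other pseudocounts, filters, scalings and priors, a replicate block, fits of the compared groups alone and leaving out libraries. No 2 libraries were identical, and the labels do not say whether replicate numbers pair libraries.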

Additional observations from a re-analysis of the deposited data

How the results depend on the processing

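Counts of members called were within 1.5 times of the reported ones in all 23 alternative fits for LPS in each diet (8 to 10 members) and remained 0 in all fits for ethanol without LPS, ethanol averaged over LPS state and the interaction. For ethanol with LPS, the count of 1 (Cxcl2) became 0 with a pseudocount of 0.1 or 0.5, no filter, equal total FPKM, median-ratio factors, no trend and no robust prior, the replicate block, or only the compared groups in the fit, and ranged from 0 to 1 when libraries were left out; the adjusted p of Cxcl2 was 0.0395 to 0.582 over all alternatives. The replicate block gave Cxcl2 1.35 ± 0.23 (SE, adjusted p = 0.124). Deviations from group means correlated at -0.206 to 0.279 between same-numbered libraries and at -0.35 to 0.391 between others. These ranges overlap, and the labels do not say whether the numbers mark pairs. Cxcl14 in ethanol-fed mice passed the threshold with equal total FPKM (-0.72, adjusted p = 0.0393). No called member changed sign under any alternative. Leaving out the 3 libraries with the lowest GC slopes, chosen after seeing the data, kept Cxcl2 (1.24, adjusted p = 0.0446) and lost Cxcl12 in ethanol-fed mice (adjusted p = 0.0548).

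Scaling every library to the same total FPKM put the all-gene median at -0.264 (LPS in ethanol-fed), -0.406 (LPS in pair-fed) and 0.191 (ethanol with LPS), and higher and lower calls to 974 and 1772 in ethanol-fed and 858 and 2565 in pair-fed mice, against 1504 and 902, and 1589 and 972, as deposited; quantile normalization moved the medians to -0.123 and -0.117. Genes called for ethanol with LPS numbered 5 higher and 9 lower as reported, 1 higher and 0 lower with no filter, 16 higher and 27 lower without PF4hLPS replicate 1, 14 higher and 10 lower without EtOH4hLPS replicate 1, and 19 higher and 20 lower without the 3 libraries of lowest GC slope. The depth of each library in fragments is unknown, which limits what can be said of the saline values of Cxcl2, Cxcl5, Cxcl11 and Cxcl13 near 0. The causes of these changes were not tested.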
